A study of Mus musculus with 39 samples.

Results

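Singly coloured (red or green) and yellow cells of the embryonic day (E) 13 mouse neocortex were compared across genes, in the 12 libraries of replicates 1, 2, 4 and 6, out of 39 libraries in the series. These are the E13 embryos in which red, green and yellow libraries all had 40% or more uniquely aligned reads. The 12 libraries had 50.5% to 65.9%, and the libraries that took the other 2 embryos out had 18.8% (yellow replicate 3), 36.1% (red replicate 5) and 19.1% (green replicate 5).

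All embryos carried MADM (Mosaic Analysis with Double Markers) cassettes on chromosome 7 (MADM-7-GT and MADM-7-TG) and Cre recombinase driven by Emx1, on a background labelled as strain CD1 and described as mixed C57BL/6J and CD1. Recombination between the homologous chromosomes in a dividing Emx1-lineage cell leaves sparse red (tdTomato, tdT+) and green (GFP+) cells with 2 copies of chromosome 7 from a single parent, in opposite parental directions. Yellow (GFP+/tdT+) cells hold a copy from each parent and are the controls. Green cells held the maternal pair in embryos 1 and 2 and red cells in embryos 4 and 6, as the sample sheet published with the series lists, and the sample labels name the colours only. The 2 colours of an embryo were averaged on the log2 scale, so each embryo gives both parental directions equal weight. Pools of 200 to 400 cells were sorted from single embryos and sequenced with Smart-Seq2 without molecular identifiers.

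In the cortex at this age, radial glia divide at the ventricle, intermediate progenitors arise from them and divide above it, and newborn projection neurons stop dividing and build axons. Radial glia are marked by Pax6, Sox2, Vim and Notch signalling genes, intermediate progenitors by Eomes, and neurons by microtubule proteins such as Stmn2, Dcx and Mapt. Emx1-Cre acts in radial glia, so progenitors and neurons of this lineage can both be labelled.

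Gene counts per library ran from 2022124 to 5205788, and 9610 to 13768 genes were detected. The yellow library of replicate 2 stood apart. It had 40.9% of uniquely aligned reads outside genes, against 16.8% to 21.6% in the other 11 libraries, and 9655 genes with a count, where the remaining yellow libraries had 13218 to 13768. All 8 singly coloured libraries had fewer genes with a count (9610 to 12883) than these 3 yellow libraries. It also held both Xist (1164 counts) and Y-linked counts (1469), whereas red and green of that embryo had 0 Xist counts. The study left this library out, so results are given with and without replicate 2.

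The first question was which genes differed between singly coloured and yellow cells of the same embryo. Neuronal genes were at lower levels and radial glia and cell-cycle genes at higher levels in singly coloured cells, but no single gene passed the test across all genes. The summed level of the 180 genes on the neuron lists was 23420 to 39150 CPM (counts scaled to a common library size by the TMM method) in the 8 singly coloured libraries and 48770 to 58780 in the 4 yellow libraries. The 115 cell-cycle genes summed to 14150 to 21340 CPM in singly coloured cells and 7574 to 12470 in yellow cells. The 79 progenitor genes summed to 9268 to 15730 CPM against 5487 to 7153. Of the progenitor lists only radial glia had separate sums, since those of intermediate progenitors overlapped (1880 to 3772 CPM against 1418 to 2342), as did those of Notch pathway genes (348 to 990.3 CPM against 586.5 to 1932). Among neuron lists the sums overlapped for projection neuron transcription factors (6102 to 10350 CPM against 9149 to 10850). They also overlapped for axon guidance and adhesion (1354 to 3003 against 2592 to 6004) and for synapse and vesicle genes (926.2 to 2471 against 1894 to 3520). S phase sums met at 3959 CPM, the lowest singly coloured and highest yellow value. In none of the 3 programme sums did the 2 kinds of library overlap, and the separation did not rest on yellow replicate 2, as the plot of summed levels shows. In pooled cells, fewer cells of a type and less RNA per cell cannot be told apart.

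**Figure D1:**
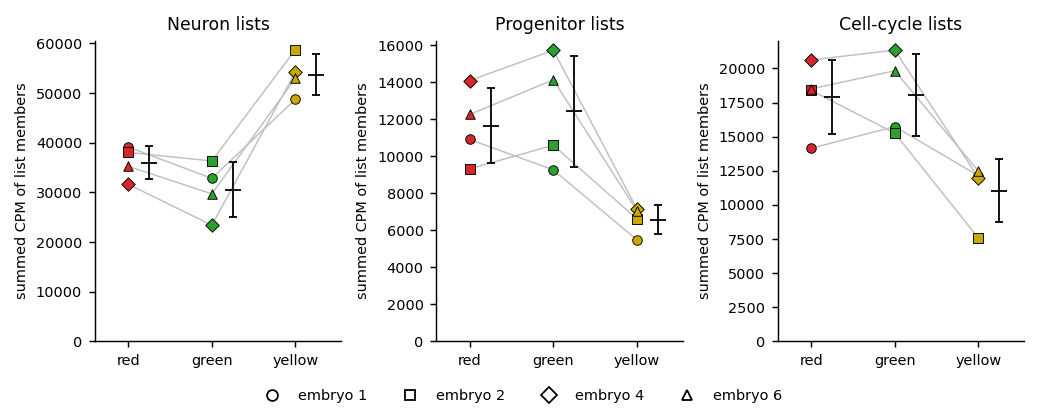
Summed CPM (y axis, linear from 0) of the neuron, progenitor and cell-cycle lists in red, green and yellow libraries (x axis). Each symbol is 1 library, grey lines join the libraries of an embryo, and black bars are the mean ± SD of 4 embryos. Yellow libraries lie above all singly coloured libraries for neuron genes and below them for progenitor and cell-cycle genes.

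Over 11903 genes, edgeR's quasi-likelihood test with the embryo as a block called 0 genes at an adjusted p under 0.05. At an unadjusted p under 0.05, 737 genes differed, 245 higher (2.06% of genes tested) and 492 lower (4.13%) in singly coloured cells. DESeq2 called 594 genes (1.55% higher, 3.44% lower) and limma-voom with quality weights 29 (0.126% higher, 0.118% lower). Without the yellow replicate 2 library edgeR called 5 genes, Stmn3, Nts, Atpif1 and mt-Cytb lower (0.034%) and Vim higher (0.00849%), and without the whole of embryo 2 it called Nts and mt-Cytb, both lower (0.0171%). Atpif1 and mt-Cytb, a mitochondrial ATPase inhibitor and cytochrome b, are outside the rule for named genes and are given because the count is small. Singly coloured libraries had 4.11% to 6.66% of counts in mitochondrial genes, and yellow libraries other than replicate 2 had 5.68% to 7.79%. The part of this share in the result was not tested. The median log2 difference of all genes was -0.11, and -0.30 without embryo 2, so list medians below are to be read against those values.

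Among the 170 neuron-list genes tested, 39 were lower and 1 was higher at an unadjusted p under 0.05. Of the 112 cell-cycle genes tested, 20 were higher and 0 lower. Of the 69 genes tested on the progenitor lists, 9 were higher and 2 lower. Over all genes 2.06% were higher and 4.13% lower, and of 11903 log2 differences 5479 were above 0 and 6424 below. The counts of single lists below are to be read against these shares. Without embryo 2 the counts were 33 lower and 2 higher for neuron genes, 1 lower and 21 higher for cell-cycle genes, and 0 lower and 10 higher for progenitor genes, where 2.14% of all genes tested were higher and 4.86% lower. At an adjusted p under 0.05 DESeq2 called 23 neuron genes lower and 1 higher, 15 cell-cycle genes higher and 0 lower, and 7 progenitor genes higher and 3 lower, against 1.55% higher and 3.44% lower over all genes. The libraries of 69 genes (0.58%) were all higher in singly coloured than in yellow cells and those of 82 genes (0.689%) all lower. This held for 13 neuron genes that were lower and 1 that was higher, and for 8 cell-cycle and 5 progenitor genes that were higher.

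The gene with the smallest p was Stmn3, a stathmin that binds tubulin (GRCm38, chromosome 2, 181306459 to 181314500, minus strand). Its level was 2102, 1080, 789.7 and 1320 CPM in red libraries of embryos 1, 2, 4 and 6, 945, 988, 547 and 576 in green libraries, and 3588, 2728, 3726 and 2779 in yellow libraries. Every singly coloured library lay below every yellow library, and green lay below red in each embryo. The log2 difference was -1.74 ± 0.23 (SE, n = 4 embryos; edgeR adjusted p = 0.103), and -1.86 without the yellow replicate 2 library (edgeR adjusted p = 0.0336).

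Clasp2, a protein that binds microtubule plus ends (chromosome 9, 113741473 to 113919682, plus strand), had the second smallest p among lower genes. It was at 3979, 2536, 2632 and 2726 CPM in red, 2782, 2458, 1609 and 1327 in green and 5393, 5212, 6902 and 6978 in yellow cells. The groups did not overlap, and the log2 difference was -1.36 ± 0.21 (edgeR adjusted p = 0.131). Stmn2, another neuronal stathmin, was at 624 to 1401 CPM in singly coloured and 1758 to 2493 in yellow cells (log2 difference -1.17 ± 0.24). Mapt, the axonal microtubule protein tau, was at 5.47 to 121.9 CPM in singly coloured and 175 to 426 in yellow cells (log2 difference -2.29 ± 0.64). For both genes, too, the groups were separate.

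These genes belong to the neuronal cytoskeleton list, which was chosen with earlier results of these data known and is described, not tested as a list. All 36 members were tested as single genes. Of these, 16 were lower and 0 higher at an unadjusted p under 0.05 (4.13% lower and 2.06% higher over all genes), and 34 of 36 log2 differences were below 0. The libraries did not overlap for 6 members, and for 10 without yellow replicate 2, when 2.36% of all genes had separate and lower libraries. The median difference was -0.89, and -0.85 without embryo 2. The list summed to 13200 to 23280 CPM in singly coloured and 30740 to 32730 in yellow cells. Clasp2 and Stmn3 held means of 2506 and 1043 CPM of this in singly coloured and 6121 and 3205 in yellow cells. Gap43, a growth cone protein, had a difference of -1.63 ± 0.34, Ina, the neurofilament protein internexin, -2.02 ± 0.48, and Tuba1a, an alpha tubulin abundant in young neurons, -0.53 ± 0.16. Not every neuronal microtubule gene followed. Tubb3, a beta tubulin used as a neuron marker, was at 1158 to 2862 CPM in singly coloured and 1903 to 2740 in yellow cells (-0.21 ± 0.20), and Dcx, which stabilises microtubules in migrating neurons, gave -0.61 ± 0.43. Map2, a dendritic microtubule protein, had overlapping libraries but is among the 16 lower members. Its difference was -0.67 ± 0.26 (unadjusted p = 0.024 in edgeR), and -0.85 without embryo 2.

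**Figure D2:**
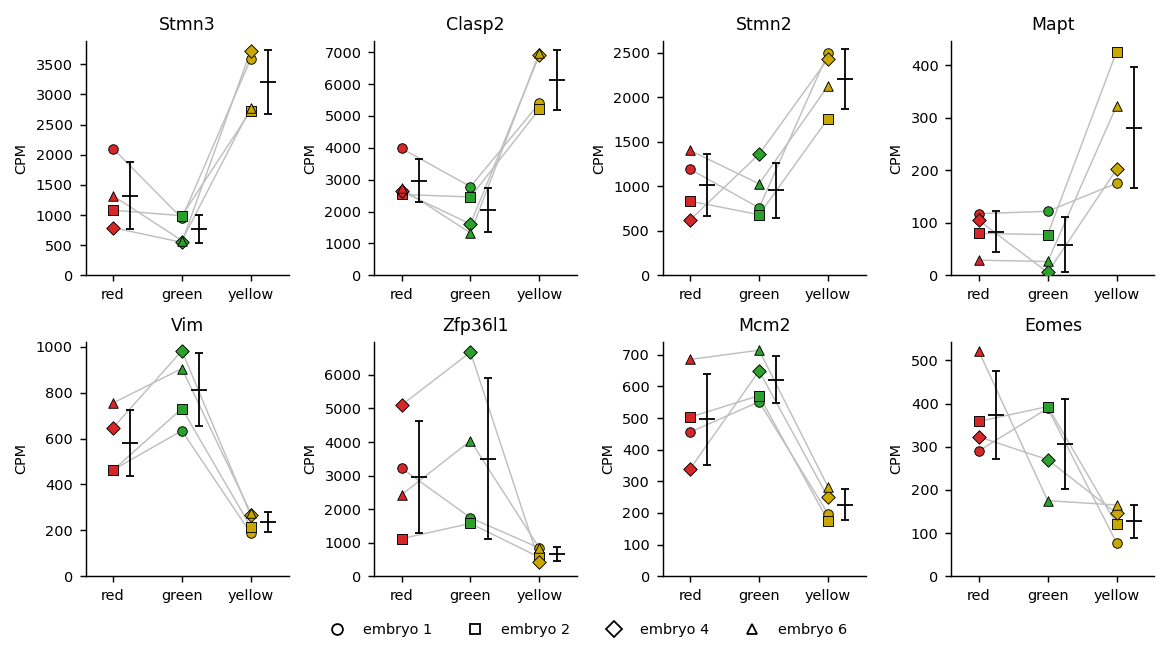
CPM (y axes, linear from 0) of 4 neuronal genes (top row) and 4 progenitor or cell-cycle genes (bottom row) by colour (x axes). Symbols are libraries, grey lines join an embryo, and black bars are the mean ± SD of 4 embryos. In each of the 8 panels every yellow library lies outside the range of the singly coloured libraries.

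Among the neuron lists, genes for membrane excitability and synapses had the lowest medians. Of 27 genes tested on the list of channels and transmitter receptors, 11 were lower at an unadjusted p under 0.05 and 0 higher. The shares over all genes were 4.13% lower and 2.06% higher. On this list 26 had a difference below 0, and the median was -2.56. Without embryo 2 the median was -2.18 and 5 were lower. Cacna2d1, an auxiliary calcium channel subunit, was at 13.9 to 84.4 CPM in singly coloured and 145.9 to 437 in yellow cells (log2 difference -1.90 ± 0.47), with no overlap. Scn3a, a sodium channel of the embryonic brain, gave -2.56 ± 0.86 (-2.08 without embryo 2, unadjusted p = 0.0779 in edgeR). Grm5, a metabotropic glutamate receptor, was at 0 in 7 of the 8 singly coloured libraries and at 1.81 to 25.6 CPM in yellow cells. Grm5 passed the filter on counts through the yellow libraries, so its lower level is no separate support. It is among the 11 lower genes, and that count and the median therefore hold a gene admitted by its yellow counts. Among synapse and vesicle genes, 5 of 27 were lower and 0 higher, with a median of -1.78 (-1.71 without embryo 2). Syt4, a synaptotagmin, gave -1.65 ± 0.54, and Cplx1, a complexin, -3.66 ± 1.22. Most of these genes were at low levels, and single libraries could be at or near 0. Fewer genes were detected in the singly coloured libraries than in yellow ones other than replicate 2, and the part of this in the result was not tested.

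Axon guidance and adhesion genes had a median of -1.05 (-1.04 without embryo 2), but 2 of 33 were lower at an unadjusted p under 0.05. That count is near the 4.13% of all genes that were lower. Nrcam, a cell adhesion molecule of growing axons, was at 1.45 to 100.1 CPM in singly coloured and 86.7 to 619.6 in yellow cells (-3.07 ± 0.61). Epha5, an ephrin receptor, gave -1.05 ± 0.42 (-0.67 without embryo 2), and Opcml, an adhesion molecule, -3.09 ± 1.44. Neuronal RNA-binding and splicing factors had a median of -0.20, near that of all genes, and 3 of 20 were lower: Celf2 (-0.77 ± 0.24), Ptbp2 (-0.98 ± 0.43) and Rbfox1 (-2.65 ± 1.19). Without embryo 2 the median was -0.56 and Celf2 alone was lower (-1.004), whereas Ptbp2 gave -0.54 and Rbfox1 -1.78.

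Transcription factors of projection neurons were mixed. Their median was -0.29, with 2 of 27 lower and 1 higher at an unadjusted p under 0.05. Both counts are near the shares over all genes, 4.13% lower and 2.06% higher. Without embryo 2 the median was -0.51, with 1 lower and 2 higher, and without embryo 4 it was 0.013. Tbr1, which specifies deep-layer neurons, was at 108 to 457 CPM in singly coloured and 571 to 654 in yellow cells (-0.90 ± 0.38), without overlap. Mef2c, a neuronal transcription factor, gave -3.27 ± 1.45 with overlapping libraries. Both had an unadjusted p above 0.05 without embryo 2 (0.0656 and 0.0821 in edgeR), at -0.93 and -4.00. Cux1, a transcription factor of upper-layer neurons that is also made in progenitors, went the other way, with 52.3 to 546 CPM in singly coloured and 27.4 to 47.4 in yellow cells (2.37 ± 0.54) and no overlap. Neurod2 (-0.47 ± 0.43), Neurod6 (-0.29 ± 0.42), Bcl11b (-0.42 ± 0.50), Sox5 (0.12 ± 0.54) and Myt1l (-1.50 ± 0.82), which act in neuronal differentiation or layer identity, had unadjusted p above 0.05. Only Myt1l among these had separate libraries, with 0 to 189.9 CPM in singly coloured and 206 to 387 in yellow cells.

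The higher gene with the smallest p was a radial glia gene. Vim, the intermediate filament of radial fibres (chromosome 2, 13573927 to 13582826, plus strand), was at 463, 462, 647 and 755 CPM in red, 634, 731, 982.5 and 905 in green and 187.5, 215.6, 265.5 and 276.6 in yellow libraries of embryos 1, 2, 4 and 6. Its level was higher in green than in red within each embryo, and the lowest singly coloured library lay above the highest yellow one. The log2 difference was 1.53 ± 0.24 (edgeR adjusted p = 0.131), 1.43 to 1.59 in single embryos, and 1.56 without the yellow replicate 2 library (edgeR adjusted p = 0.0336).

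Notch1, the receptor that maintains radial glia (chromosome 2, 26457903 to 26516663, minus strand), was at 269, 32.9, 381 and 300.0 CPM in red, 116, 128.7, 514 and 253 in green and 0, 2.95, 7.03 and 0.453 in yellow libraries. Each singly coloured library was above each yellow one, and the log2 difference was 6.78 ± 1.09 (edgeR adjusted p = 0.149). Zfp36l1, an RNA-binding protein that shortens the life of mRNAs, was at 1121 to 6679 CPM in singly coloured and 432.5 to 842 in yellow cells (2.00 ± 0.39). Id4, an inhibitor of differentiation factors, gave 1.47 ± 0.30 with overlapping libraries.

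Of 32 radial glia genes tested, 7 were higher and 0 lower at an unadjusted p under 0.05, against 2.06% higher and 4.13% lower over all genes. For 4 the libraries were separate and higher, against 0.58% of all genes, and 29 had a difference above 0. The median was 0.95, and 0.91 without embryo 2. The summed level was 5234 to 13500 CPM in singly coloured and 3211 to 3905 in yellow cells, and without Zfp36l1 it was 3876 to 6824 and 2640 to 3192. Other defining markers had an unadjusted p above 0.05 in edgeR: Pax6 (1.25 ± 0.70), Sox2 (0.71 ± 0.52), Hes1 (0.83 ± 0.45), Slc1a3 (1.63 ± 1.37) and Fabp7 (0.36 ± 0.29). Without embryo 2 they gave 0.58, 1.05, 0.75, 0.91 and 0.046 in the same order. Sox2 alone then had an unadjusted p under 0.05 (0.0449 in edgeR). Hes5, a Notch target, was at 0 to 12.3 CPM and could not be judged at this depth. Tnc, Hopx, Sox3 and Veph1 did not pass the filter of a mean count of 10.

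Of 18 further Notch pathway genes, 1 was higher and 2 lower at an unadjusted p under 0.05. Numb, which antagonises Notch, was at 24.6 to 110.5 CPM in singly coloured and 4.80 to 29.0 in yellow cells (2.39 ± 0.78). Dner, a neuronal Notch ligand, gave -2.60 ± 0.96 and Jag2, another ligand, -5.32 ± 2.29. Without embryo 2, Dner (-2.78) and Jag2 (-6.33) had an unadjusted p above 0.05. The median was -0.15, near that of all genes.

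Eomes, the transcription factor that marks intermediate progenitors, was at 175 to 521 CPM in singly coloured and 77.8 to 165 in yellow cells (1.43 ± 0.39, edgeR adjusted p = 0.520), without overlap. It was the single member of 19 tested on its list with an unadjusted p under 0.05. Neurog2 (1.76 ± 0.81), Gadd45g (0.80 ± 0.45) and Insm1 (0.72 ± 0.68), factors of neurogenic divisions, overlapped between groups. The list had a median of 0.48, and 0.23 without embryo 2.

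**Figure D3:**
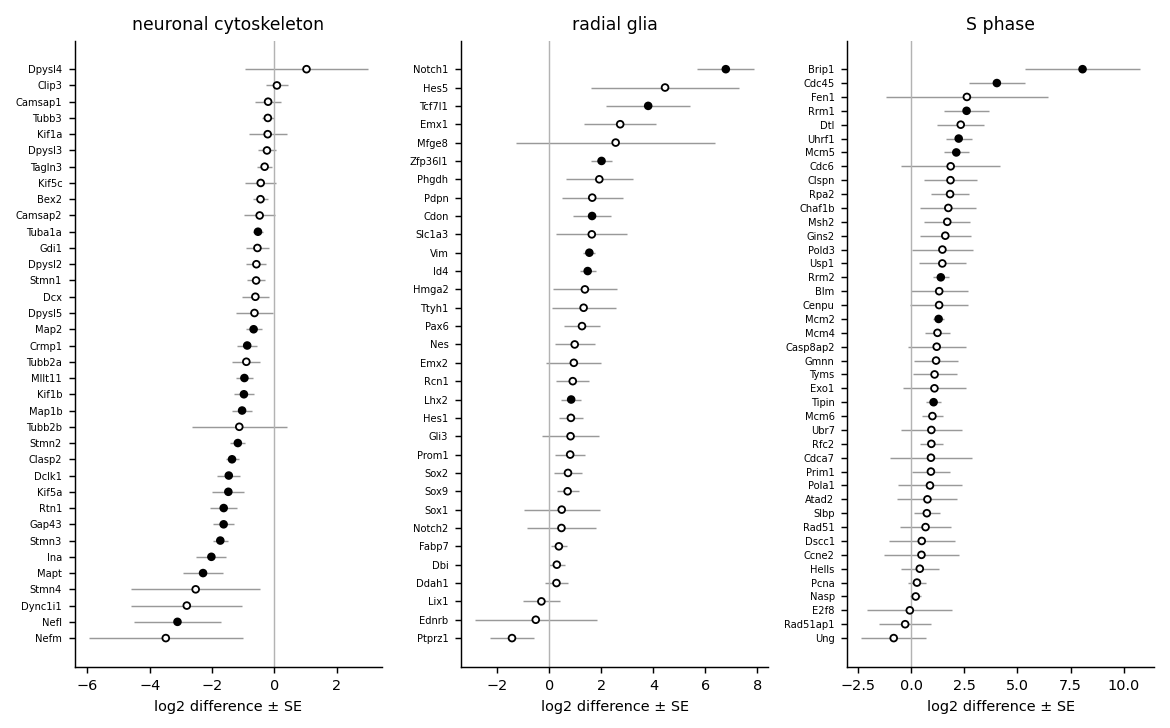
Fitted log2 difference of singly coloured minus yellow cells (x axes) for each tested gene (y axes) of 3 lists, with its SE from the fit of 4 embryos. Filled points have an unadjusted p under 0.05. They number 16 of 36 neuronal cytoskeleton genes, all below 0, and 7 of 32 radial glia and 8 of 42 S phase genes, all above 0.

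Cell-cycle genes were compared next. Of 42 S phase genes tested, 8 were higher and 0 lower at an unadjusted p under 0.05 (2.06% higher over all genes), with a median of 1.19. Mcm2, a subunit of the replicative helicase (chromosome 6, 88883474 to 88898780, minus strand), was at 456, 503, 340.2 and 685 CPM in red, 551, 571, 649 and 714 in green and 198, 175.7, 249.7 and 283 in yellow libraries. All singly coloured libraries were higher, and the log2 difference was 1.30 ± 0.27 (edgeR adjusted p = 0.372). Uhrf1, which maintains DNA methylation at replication, gave 2.24 ± 0.61, Rrm2, a subunit of ribonucleotide reductase, 1.40 ± 0.39 and Mcm5, another helicase subunit, 2.13 ± 0.59, with overlapping libraries. Pcna, the sliding clamp, was at 110.8 to 186 CPM in singly coloured and 66.9 to 202 in yellow cells (0.28 ± 0.41).

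The S phase median depended on embryo 2. In single embryos it was 0.38, 4.41, 0.80 and 0.58 for embryos 1, 2, 4 and 6, and the fitted median without embryo 2 was 0.50. In yellow replicate 2 the list summed to 1339 CPM, the lowest of the 12 libraries. For all genes the embryo 2 median was 0.68, against -0.48 to -0.04 in the others.

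G2/M genes had a median of 1.12 (0.81 without embryo 2), with 9 of 52 higher and 0 lower, against 2.06% higher over all genes. They summed to 7653 to 11740 CPM in singly coloured against 4859 to 7500 in yellow cells. Cdk1, the kinase that drives entry into mitosis, was at 172 to 456 CPM in singly coloured and 80.7 to 169.5 in yellow cells, without overlap (1.02 ± 0.36, edgeR adjusted p = 0.729). Tacc3, a spindle protein, was at 127 to 408 CPM against 16.7 to 76.1 (2.06 ± 0.54), also without overlap, and its difference without embryo 2 was 1.60. Hjurp, which loads centromere histone, gave 2.40 ± 0.68 and Cdc25c, the phosphatase that activates Cdk1, 2.62 ± 0.85. Top2a, the topoisomerase of condensing chromosomes, gave 2.21 ± 1.05 and Mki67, the proliferation marker, 1.56 ± 0.80; in embryo 2 alone they reached 8.13 and 5.93, and without it 1.45 and 0.92.

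The promoters of G2/M genes are shown because many of these genes share letters in the bases just upstream of their start. In RefSeq promoters of GRCm38.p6, the 250 bases before the start were searched on both strands for TTTGAA (the cell-cycle homology region, CHR) and CCAAT (the CCAAT box), which do not overlap each other. Of 54 G2/M genes 47 had a promoter, and 19 of them (40.4%) held TTTGAA and 36 (76.6%) CCAAT, against 15.3% and 35.2% of 20428 promoters. Among 8951 promoters of genes tested the shares were 10.1% and 37.1%. Of 36 radial glia genes 32 had a promoter, and 3 (9.38%) held TTTGAA and 15 (46.9%) CCAAT. A match is a description of the letters and not of binding. The windows are chr10:69352913-69353162 for Cdk1, chr11:99024190-99024439 for Top2a and chr7:135716380-135716629 for Mki67, all on the minus strand, and chr5:33657878-33658127 on the plus strand for Tacc3. Matches on either strand are in capitals. Cdk1 holds 2 CHR and 3 CCAAT matches, Top2a 2 and 6, Mki67 2 and 3, and Tacc3 none of either.
Cdk1: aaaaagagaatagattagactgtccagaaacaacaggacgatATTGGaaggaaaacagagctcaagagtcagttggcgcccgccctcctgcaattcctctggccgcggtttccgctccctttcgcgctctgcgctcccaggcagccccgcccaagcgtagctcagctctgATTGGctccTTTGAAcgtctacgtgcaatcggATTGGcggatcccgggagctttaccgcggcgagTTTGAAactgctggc
Top2a: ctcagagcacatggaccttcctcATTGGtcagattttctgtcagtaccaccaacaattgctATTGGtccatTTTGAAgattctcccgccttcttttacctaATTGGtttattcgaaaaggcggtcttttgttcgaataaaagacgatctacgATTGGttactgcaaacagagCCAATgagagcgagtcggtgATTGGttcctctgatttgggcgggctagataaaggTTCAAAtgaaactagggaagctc
Mki67: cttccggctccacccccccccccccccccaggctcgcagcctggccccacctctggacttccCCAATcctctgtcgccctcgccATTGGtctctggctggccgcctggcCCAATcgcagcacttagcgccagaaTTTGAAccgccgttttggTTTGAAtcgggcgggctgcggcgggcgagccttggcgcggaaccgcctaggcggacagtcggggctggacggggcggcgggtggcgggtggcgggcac
Tacc3: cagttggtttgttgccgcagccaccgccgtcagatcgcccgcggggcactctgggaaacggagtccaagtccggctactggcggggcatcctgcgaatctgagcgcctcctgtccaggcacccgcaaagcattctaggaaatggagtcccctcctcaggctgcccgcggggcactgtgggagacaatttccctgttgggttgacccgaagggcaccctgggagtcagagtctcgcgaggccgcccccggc

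Of 18 G1 cyclins, kinases and inhibitors, 3 were higher and 0 lower at an unadjusted p under 0.05. Ccnd2, the cyclin D of cortical progenitors, was at 292.6 to 923 CPM in singly coloured and 192 to 353 in yellow cells (1.07 ± 0.29). Its kinase partners Cdk4 and Cdk6 gave 0.62 ± 0.21 and 2.60 ± 1.14. Ccnd1, another cyclin D, gave 0.94 ± 1.40. The list median was 0.92, and 0.33 without embryo 2.

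Cdkn1c, the imprinted cell-cycle inhibitor on chromosome 7 after which the study is named, was at 120.2, 11.8, 64.0 and 60.2 CPM in red, 216, 289, 0 and 0 in green and 127, 90.3, 82.4 and 33.6 in yellow libraries of embryos 1, 2, 4 and 6. Green was above red in embryos 1 and 2 and below it in embryos 4 and 6, so the mean of the colours gave a log2 difference of -0.22 ± 1.39. In each embryo the colour with the maternal pair had the higher level. Over the 14 genes tested of 22 imprinted genes of chromosome 7 the median was -0.98, with 1 lower and 0 higher at an unadjusted p under 0.05. Magel2 (-5.78 ± 1.96), Usp29 (-3.39 ± 2.20) and Ndn (-1.44 ± 0.95) had the smallest p. The colours are averaged on the log2 scale. A gene near 0 in 1 colour can thus give a difference below 0 without a lower mean CPM. Cdkn1c had a mean of 95.1 CPM in singly coloured and 83.4 in yellow cells. With red and green counts added, Cdkn1c gave 0.035, whereas Magel2, Usp29 and Ndn gave -3.81, -1.80 and -1.49. The part of this averaging in the list median was not tested. Yellow replicate 2 held 511.6 CPM of Magel2, against 25.3 to 95.2 in the other yellow libraries, and without embryo 2 its difference was -4.02 (unadjusted p = 0.116 in edgeR). The list median was then -1.36, and -0.70 without the yellow replicate 2 library alone.

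**Figure D4:**
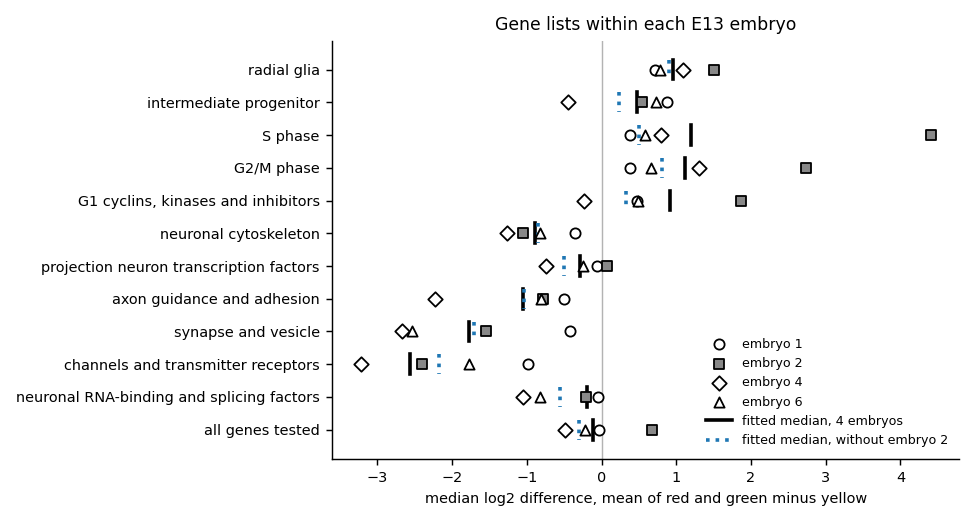
Median log2 difference, mean of red and green minus yellow (x axis), of each gene list (y axis). Symbols are the 4 embryos (embryo 2 filled grey), black lines the fitted median, and dotted blue lines that without embryo 2. Neuronal cytoskeleton, axon, synapse and channel medians are below 0 in every embryo, those of radial glia, S phase and G2/M genes above 0 in every embryo, and embryo 2 lies far to the right for S phase and G2/M genes.

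The contrast was then taken for each colour alone, each colour pooling both parental directions. Red and green were compared with the same yellow libraries, so the 2 results are not independent. At an adjusted p under 0.05 edgeR called 0 genes in each (464 and 680 at an unadjusted p under 0.05), and DESeq2 414 and 544. At an unadjusted p under 0.05, 1.66% of genes were higher and 2.23% lower in red, and 2.23% higher and 3.49% lower in green. List medians for red and for green were -0.58 and -1.05 for the neuronal cytoskeleton, -1.71 and -3.11 for channels and receptors, 1.08 and 1.14 for radial glia, 1.12 and 1.50 for S phase and 1.17 and 1.01 for G2/M genes. Each of these 5 lists had the same sign in both colours. The medians of Notch pathway genes (0.11 in red and -0.31 in green) and of p53 and apoptosis genes (0.17 and -0.032) did not, nor did those of interneuron, erythroid and choroid plexus markers. Stmn3 gave -1.36 ± 0.28 in red and -2.12 ± 0.29 in green, and Vim 1.29 ± 0.26 and 1.78 ± 0.26. The direct comparison of green with red called 0 genes by edgeR (294 at an unadjusted p under 0.05, 0.966% higher and 1.5% lower) and 337 by DESeq2. It gave -0.76 ± 0.28 for Stmn3 and 0.49 ± 0.25 for Vim, both with edgeR adjusted p = 1. The smallest p in red were those of Notch1, Vim and Hnrnpab, higher, and Stmn3, Dnm1 and Nts, lower. In green they were those of Vim, Notch1 and Id4, higher, and Stmn3, Clasp2 and Celsr3, a cadherin of axon guidance, lower (-4.28 ± 0.84 for Celsr3). Celsr3 was at 503 CPM in yellow replicate 2 and at 39.9 to 81.6 in the other yellow libraries.

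The same contrast at E16 was taken in 21 libraries of 7 other embryos, where edgeR called 0 of 10794 genes (0.991% higher and 1.39% lower at an unadjusted p under 0.05). At E16 the medians were near 0 for the neuronal lists: -0.06 for the cytoskeleton, 0.11 for axon guidance, -0.12 for synapse and -0.20 for channels. They were 0.94 for radial glia, 0.58 for S phase and 0.95 for G2/M genes, close to the E13 values without embryo 2. The study left out 3 of these libraries (red 5, red 6 and yellow 7), which had 7858 to 9210 genes detected where the other 18 had 10194 to 13121. Without them edgeR called 0 of 10701 genes (349 at an unadjusted p under 0.05), and the medians, over the genes tested in that fit, were -0.22, 0.0089, -0.13 and -0.13 for the 4 neuronal lists in the same order and 0.70, 0.56 and 0.69 for radial glia, S phase and G2/M genes. The test of the difference between ages called 0 of 11485 genes in edgeR (469 at an unadjusted p under 0.05, 1.09% higher and 3% lower at E13) and 221 in DESeq2. Stmn3 had a difference of 0.04 ± 0.22 at E16, and the E13 minus E16 value was -1.78 ± 0.35 on the log2 scale (edgeR adjusted p = 0.321). Clasp2 had -0.06 at E16 and an age difference of -1.30 (edgeR adjusted p = 0.321), whereas Vim had 1.12 at E16 and an age difference of 0.41 ± 0.42 (edgeR adjusted p = 1). Without the 3 libraries the test of age again called 0 genes (639 at an unadjusted p under 0.05), and Stmn3 had -0.32 at E16 and an age difference of -1.42 (edgeR adjusted p = 0.0802). The other genes with the smallest p for age were Hnrnpab (1.46 ± 0.37), Eef1a1, a translation factor (0.87 ± 0.24), Cep131, a centrosome protein (6.78 ± 1.98), and Pdzrn4 (-7.28 ± 1.70). The median age difference was -0.74 for the cytoskeleton, -1.75 for synapse and -2.01 for channel genes, against -0.17 for all genes and 0.07 for radial glia.

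**Figure D5:**
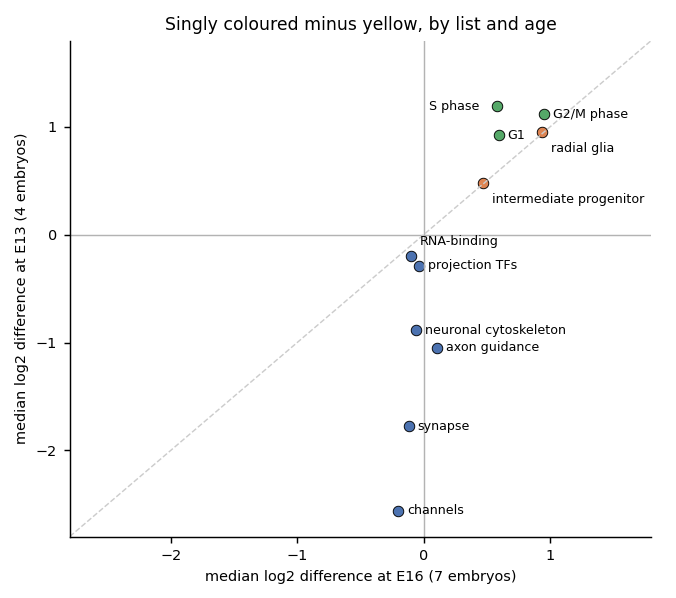
Median log2 difference of singly coloured minus yellow cells at E13 (y axis, 4 embryos) against E16 (x axis, 7 embryos), 1 point per gene list. Blue points are neuron lists, orange progenitor and green cell-cycle lists, and the dashed line marks equal values. The neuron lists lie near 0 at E16 and down to -2.56 at E13.

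Markers of other cells were examined beside these differences. Neocortical markers were present in each library, with Tbr1 at 108 CPM or more. Of 12 microglia markers 5 passed the filter on counts, and they passed it through yellow libraries alone, so no count of lower genes is given. Fcer1g, Cx3cr1 and C1qb were at 0 in all 8 singly coloured libraries and reached 85.8, 31.7 and 31.0 CPM in yellow libraries, and the whole list summed to 0 to 41.9 CPM against 1.13 to 236. Of 10 Cajal-Retzius markers 8 were tested and 3 lower, against 4.13% lower over all genes. The 3 were Reln, the secreted layer organiser of these neurons (-1.44 ± 0.57), Calb2 (-3.86 ± 1.32) and Cacna2d2 (-5.67 ± 2.41). Without embryo 2, 0 of the 8 were lower, and the 3 gave -1.33, -3.21 and -3.17. Their sums overlapped, at 112 to 1005 CPM in singly coloured and 405 to 768 in yellow cells.

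Globin mRNA was uneven between libraries. Hbb-y, an embryonic beta globin, was at 47810 and 10270 CPM in red replicates 1 and 2 and at 28550 and 41150 in yellow replicates 1 and 4, and at 5.42 or less in the other 8 libraries. Of 8 erythroid markers tested 2 (Hba-x and Hbb-y) were lower and 0 higher at an unadjusted p under 0.05, against 4.13% lower over all genes. Without embryo 2, 3 were lower. In red alone the 2 genes gave 1.23 ± 3.07 and -0.69 ± 2.67, and in green -15.1 ± 4.36 and -12.28 ± 4.00. With red and green counts added they gave 0.64 and -0.34. The part of averaging the colours in this count was not tested. The erythroid sum ran from 0.223 to 66340 CPM in singly coloured and from 1.36 to 58210 in yellow cells. Some libraries with little Hbb-y held other erythroid markers, with sums of 19470 CPM in red replicate 4, 7194 in green replicate 1 and 1276 in yellow replicate 2.

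The other lists held few differences. Of 7 interneuron markers tested 0 had an unadjusted p under 0.05 (Npy, Sst and Dlx5 had the smallest), and sums were 13.8 to 223 CPM against 20.2 to 195. Without embryo 2, 1 of the 7 was lower (Sst, -7.08, unadjusted p = 0.0348 in edgeR). Endothelial markers (3 tested, 0 with an unadjusted p under 0.05) summed to 0 to 135 CPM against 0 to 59.2, led by Egfl7, Kdr and Esam. Of 4 pericyte markers tested (Vtn, Rgs5 and Cspg4 had the smallest p), Vtn was at 0 in all singly coloured libraries and passed the filter through yellow libraries alone, with list sums of 0 to 73.7 against 1.36 to 136.8 CPM. Of 8 meningeal markers tested 1 was higher (Col1a2, 2.78 ± 1.19, followed by Col3a1 and Cxcl12) and 0 without embryo 2, with sums of 28.8 to 993 against 29.9 to 964 CPM. Hem and choroid plexus markers (6 tested, led by Wnt8b, Lmx1a and Rspo3) and oligodendrocyte precursor markers (3 tested: Bcan, Cspg5 and Pdgfra) had 0 such genes, with sums of 7.05 to 98.3 against 12.8 to 100.6 CPM and 0.669 to 164 against 23.1 to 37.8 CPM. The part of these cells in the neuron and progenitor differences was not tested.

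Few stress-related genes had a small p. Of 17 p53 and apoptosis genes tested 1 was lower and 0 higher at an unadjusted p under 0.05 (Bad, -1.49 ± 0.66) and 0 of either without embryo 2, with Trp53 at 1.40 ± 0.65 and Casp9 at -2.60 ± 2.08, and a median of -0.04. Of 14 immediate early and heat shock genes tested 0 had an unadjusted p under 0.05. Dusp1, Ddit3 and Atf3 had the smallest, at -0.88 ± 0.42, -2.24 ± 1.25 and -4.58 ± 2.39, and the list median was -0.76. Without embryo 2, 2 were lower (Dusp1, -1.04, and Atf3, -6.01) and 1 was higher, against 4.86% lower and 2.14% higher over all genes. The list median was then -0.82.

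The genes with the smallest p outside these lists were of other kinds. Hnrnpab, an RNA-binding protein, was at 922 to 3319 CPM in singly coloured and 395 to 707 in yellow cells (1.45 ± 0.27), without overlap. Nts, the neuropeptide neurotensin, was at 0 or 0.421 CPM in the singly coloured libraries of embryos 1, 4 and 6 and at 522.5, 370 and 152 in yellow libraries of these embryos, whereas in embryo 2 it was at 41.0 and 12.3 against 25.6. Its log2 difference was -10.27 ± 1.82 (edgeR adjusted p = 0.276), and -11.94 without the yellow replicate 2 library (edgeR adjusted p = 8.197e-04). Dnm1, the neuronal dynamin of vesicle uptake, was at 30.8 to 189.4 CPM in singly coloured and 244 to 540 in yellow cells (-2.08 ± 0.39), without overlap. The noncoding gene 4933400F21Rik (-6.83 ± 1.22) was carried by yellow replicate 2, at 544 CPM against 0 to 42.2 in the other yellow libraries.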

How the data were processed

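The authors merged technical replicates (SAMtools 1.8), converted reads (bedtools 2.26.0) and counted reads with a single alignment with STAR 2.5.0c on GRCm38 and Gencode M16. Raw read counts per gene were deposited as 3 columns a library, 1 without strand and 2 by strand. The 2 by strand held about equal shares (medians 54.6% and 53.0% of the first), and only the first was used here. Antisense or overlapping genes cannot be told apart. Symbols and coordinates are from Gencode M21 (53274 of 53379 genes matched). Groups, colours and replicate numbers are from the labels.

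The test for genes with a mean count of at least 10 was that of edgeR 4.0.16 under R 4.3.3 (TMM, quasi-likelihood test, contrast of the mean of red and green against yellow, Benjamini-Hochberg threshold 0.05), fitted over all colours and blocked by embryo. DESeq2 1.42.0, limma 3.58.1 and other settings were alternatives. CPM values are TMM-scaled, and ± on a log2 difference is its SE. It was obtained as the size of the difference divided by the square root of the quasi-likelihood F statistic. For genes at 0 in many libraries it can differ from the SE of another tool: 4933400F21Rik had 1.22, and 2.54 in DESeq2. The floor of a library is 3 counts (0.576 to 1.48 CPM), which covers counting error only. Single individuals were replicates in the study's methods, so libraries with the same number were taken as 1 embryo. Deviations from the colour means correlated at a mean of 0.048 over 12 same-number pairs (0.0045 to 0.096) and -0.016 over 36 others. Deviations within a colour cancel out, so the value for the others largely follows from that for same-number pairs. The contrast between them is therefore no separate evidence for the pairing. Whether the low same-number mean differs from that of other pairings was not tested.

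Members and gene lists were chosen with earlier results of these data known, so lists are described by counts and medians and not tested. Named genes are a fixed set of markers, the 5 genes with the smallest p in each direction (none passed the threshold, and genes without a symbol were passed over), the 3 of each list with the smallest p, and 3 in each direction for red, green and age. 1 gene that this rule selects is not reported here; the others are. Genes given beyond these were chosen after their values were seen. The scripts were tested on simulated data.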

Additional observations from a re-analysis of the deposited data

Results flagged for a closer look

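In groups of 4, a value was singled out where it lay far from the other 3 (Dixon's criterion, 0.829). This was met in 10 of 136 groups, and chance alone gives about 1 in 20. For libraries, yellow replicate 2 had 40.9% of uniquely aligned reads outside genes (others 18.0% to 20.0%) and 9655 genes detected, and red replicate 4 had 52.95% uniquely aligned reads (others 58.1% to 59.1%).

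In embryo 2 the median S phase difference was 4.41 (others 0.38 to 0.80), and the log2 differences of Pax6, Mki67 and Tacc3 were 5.49, 5.93 and 4.00. The 3 genes were at 0.22 to 1.05, 0.53 to 0.90 and 1.36 to 1.81 in the other embryos. In embryo 4 the differences of Neurod2, Hnrnpab and Bcan were -1.56, 2.39 and -3.58, against -0.24 to 0.02, 1.09 to 1.27 and 2.63 to 3.29 in the others.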

How the results depend on the processing

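The count of genes past the threshold was 0 in each comparison, and depended on the tool and on yellow replicate 2. For singly coloured against yellow it was 1 with DESeq2 size factors, 23 without a filter on low counts, 594 by DESeq2, 29 by limma-voom, 1 with the study's sample code as block, 5 without the yellow replicate 2 library, 1 with all 15 E13 libraries that had 40% or more uniquely aligned reads, and 0 to 2 when each replicate was left out, the 2 without replicate 2. With no replicate block it stayed at 0, while the count at an unadjusted p under 0.05 went from 737 to 997. A count that is 0 in both fits cannot show what the pairing of same-numbered libraries changes. Red against yellow gave 5 without a filter, 414 by DESeq2 and 2 without the yellow replicate 2 library. Green against yellow gave 20, 544 and 4 in the same order, 8 by limma-voom, 2 with the sample code and 3 with all 15 libraries. Green against red gave 3 without a filter and 337 by DESeq2. The age difference gave 221 by DESeq2 and 0 to 1 when each E13 replicate was left out, the 1 without replicate 1. The cause was not tested.

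Medians of cell-cycle lists were lower without embryo 2: S phase went from 1.19 to 0.50, G1 from 0.92 to 0.33 and G2/M from 1.12 to 0.81. Embryo 2 also widens the spread between embryos, so that spread is a weak measure of these shifts. The p53 median changed sign in 9 of 14 settings (-0.29 to 0.44, the 0.44 with red and green added), that of projection neuron factors in 1 (0.013 without replicate 4) and that of Notch genes in 1 (0.15 with colours added). The age count stayed at 0 without 3 E16 libraries left out by the study, a setting chosen after seeing the data. These single genes changed sign: Tubb3 (-0.33 to 0.0084 when each replicate was left out) and Neurod6 (-0.76 to 0.013), both above 0 without replicate 4, Sox5 (-0.10 by limma-voom, -0.028 without yellow replicate 2, -0.029 to 0.22 when each replicate was left out), Ccnd1 (-0.27 by limma-voom), Cdkn1c (0.11 with no replicate block, 0.035 with colours added, -1.63 to 0.31 when each replicate was left out), Casp9 (0.15) and Atf3 (0.032) by limma-voom, Esam (-2.85 to 2.41 when each replicate was left out, -1.65 by limma-voom, -0.85 with no replicate block, -0.60 with the sample code, -1.21 without yellow replicate 2), Cspg4 (0.42 and 0.36 by limma-voom and without yellow replicate 2, -4.93 to 0.41 when each replicate was left out), Hba-x (0.64 with colours added), Hbb-y (1.01 by limma-voom), Cxcl12 (0.96 with colours added, -2.53 to 0.38 when each replicate was left out), Cspg5 (0.13, 0.96, 0.92 and 0.24 by limma-voom, with no replicate block, with the sample code and with colours added, -0.90 to 1.17 when each replicate was left out) and Pdgfra (-0.034 and -0.48 by limma-voom and without yellow replicate 2, -0.47 to 2.12 when each replicate was left out). With 4 embryos and pools of 200 to 400 cells, genes of few counts cannot be judged; the 2 globins were abundant but in 4 libraries only.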
